A study of Mus musculus with 8 samples.

Results

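Gene expression was compared between RAW264.7 cells given all-trans retinoic acid (ATRA) alone and untreated RAW264.7 cells. RAW264.7 is a mouse macrophage-like line transformed by Abelson murine leukaemia virus. The members were the arrays whose labels name ATRA without interleukin-13 (IL-13) and those labelled as control, 1 array of each at 12 h and 1 of each at 24 h, so 4 of the 8 arrays of the series. All cells were grown in DMEM with 15% heat-inactivated fetal bovine serum at 5% CO2, and the labels call both groups unpolarized. The other 4 arrays were of cells given IL-13 or IL-13 with ATRA for the same times. None of them is part of the difference between ATRA and control, which was looked at again on them. They did enter the probe filter and the error of the fit, so they are not independent of the calls. The dose of ATRA, the vehicle of the control and the number of cultures were not given in the sources used here. A p-value therefore measures no more than how these arrays spread, which may be technical. Slide 1 held the 12 h arrays and slide 2 the 24 h arrays. Time cannot be told apart from slide, and ATRA and control cells were compared within each slide.

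ATRA enters cells and binds the retinoic acid receptors (RARs), nuclear receptors that sit on DNA with a retinoid X receptor partner at paired copies of a short motif. Binding of the ligand exchanges corepressors for coactivators, and a first set of target genes includes enzymes that remove the ligand and the receptor RARB itself. In myeloid cells ATRA is known for driving differentiation, and in macrophages for changing lipid handling and inflammatory output.

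Each value below is a background-corrected probe signal, scaled so that the 75th percentile is the same on every array, and is called the signal. Differences are in log2 units, so 1 unit is 2-fold, and the error after ± is the standard error from limma. For each gene the 12 h array is given before the 24 h array. Of 15440 genes tested, 287 (1.86%) passed a Benjamini-Hochberg adjusted p under 0.05 in limma and are called changed, 139 higher (0.900%) and 148 lower (0.959%). An exact permutation test of 2 arrays against 2 that ignores the pairing by time cannot give a two-sided p below 0.33. Permuting within each time leaves fewer arrangements, so its smallest p is higher still. The count rests on each array: it was 63 without the 12 h control array, 1 without the 24 h control array, 27 and 19 without the 12 h and the 24 h ATRA array, 171 without either IL-13 array and 74 without either array of both agents, and it was 0 when probes at background were tested too. Among the 287 genes 0 changed sign in any of these. All 287 had the same sign at both times, which the call favours, so this says little about how firm the calls are. The 4 arrays were alike in signal: the 75th percentile lay between 514.9 and 574.6 units, and 59.8% and 59.5% of probes were well above background on the control arrays against 58.6% and 56.8% on the ATRA arrays. The median difference over all genes was −0.02. The smaller share of probes above background in ATRA cells was not tested for a part in the results.

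The cells kept the transcripts of a macrophage. All 21 tested genes of the macrophage identity list were well above background on all 4 arrays, with a median difference of 0.01. The lysosomal protein Cd68 had signals of 18444 and 16817 on the control arrays and 17123 and 17251 on the ATRA arrays, and the receptor for colony-stimulating factor 1, Csf1r, had 58847 and 43216 on the control arrays and 54432 and 51719 on the ATRA arrays, so for both genes the groups overlapped. Markers of other cells were at or near background: of 15 T, B and NK cell markers 4 could be tested, and of 14 fibroblast, epithelial and endothelial markers 4, with 0 called in either list. Their summed signals were 98.6 and 104 on control arrays against 90.5 and 101 on ATRA arrays for the lymphocyte list. Among 16 granulocyte markers 6 were tested and 1 rose (16.7%, against 0.900% of all genes). It was the transcriptional repressor Gfi1, with signals of 8.96 and 12.4 on the control arrays and 91.1 and 197 on the ATRA arrays (3.67 ± 0.31, adjusted p = 0.0161). The granulocyte genes Elane, Camp, Ngp and Cxcr2 were well above background on 0 of the 8 arrays. In RNA of a whole culture, fewer cells of a type and less RNA per cell cannot be told apart.

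The receptor Rarb, the kinase gene Camkk1 and the transglutaminase Tgm2, which crosslinks proteins, all rose. Rarb had signals of 357 and 439.7 on the control arrays and 1579 and 1220.1 on the ATRA arrays (1.81 ± 0.18, adjusted p = 0.0235; 2.14 at 12 h and 1.47 at 24 h). Both ATRA arrays lay above both control arrays, as they did for 20.0% of all genes tested, and the difference was the larger at 12 h. Tgm2 had signals of 714 and 345 on the control arrays and 8912 and 14119.7 on the ATRA arrays, a rise of 4.50 ± 0.39 (adjusted p = 0.0182) that reached 5.36 at 24 h from 3.64 at 12 h, and its 2 other probes gave 3.76 and 3.89. Camkk1, which encodes a kinase that activates calcium-calmodulin-dependent kinases, had 1.68 and 4.31 on the control arrays and 1128 and 1543 on the ATRA arrays. The control arrays were below background and the ATRA arrays far above it, so Camkk1 was higher by at least 163-fold (adjusted p = 0.00414 in limma). Its fitted difference was the largest of the 287 called genes. Camkk1 entered the test only through treated arrays, and its p-value uses control signals below background. It was also the 1 called gene among 13 calcium-calmodulin kinases tested (7.69%, against 1.86% of all genes). The related kinase gene Camkk2 was −0.54 (adjusted p = 0.173), and the list's median was −0.11.

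Of 8 tested genes in a list of textbook retinoic acid targets 4 rose (50%, against 0.900% of all genes) and 0 fell, with a median of 1.78, or 1.73 with a bound in place of the fitted value for Hic1. Besides Tgm2 and Rarb these were Dhrs3, which reduces retinaldehyde to retinol and so lowers the supply of retinoic acid, and Nrip1, a cofactor of nuclear receptors. Dhrs3 had signals of 2544 and 1761 on the control arrays and 13164 and 14783 on the ATRA arrays (2.72 ± 0.19, adjusted p = 0.0109), and Nrip1 had 746 and 679 on the control arrays and 2255 and 2571 on the ATRA arrays (1.76 ± 0.15, adjusted p = 0.0161). The transcriptional repressor Hic1 was at least 3.26-fold above the limit of the control arrays and missed the threshold (adjusted p = 0.0545). Cyp26a1 and Cyp26b1, which degrade retinoic acid, were each well above background on 1 of these 4 arrays and were not tested. The other receptors did not pass the test: Rxra was 0.14 ± 0.26 and Rarg −0.45 ± 0.14 (adjusted p = 0.87 and 0.215), while Rara, well above background on 1 of 2 ATRA arrays, was uncertain (−0.39 ± 1.44, adjusted p = 0.938).

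The stretch of the Rarb promoter that holds a receptor element is shown because Rarb was the only called gene with one in the window searched. RefSeq gives a promoter for 99 of the 139 genes that rose and for 101 of the 148 that fell, each 250 bases before to 50 bases after the start (build GRCm38.p6). These were searched on both strands for direct repeats of the motif AGGTCA, in which the leading A may be G and the G before TCA may be T, with 1, 2 or 5 bases between the copies. A repeat spaced by 5 bases was found in 1 of the 99 genes that rose, in 0 of the 101 that fell, in 4 of 10173 tested genes with a promoter (0.04%) and in 32 of 32851 promoters in all (0.1%). Repeats spaced by 1 or by 2 bases were found in 0 called genes, against 28 and 10 tested genes. The Rarb match begins at position −53 from the start, on the minus strand of chromosome 14 (chr14:16575477-16575586 in GRCm38.p6), and capitals mark both copies with the 5 bases between them.
Rarb: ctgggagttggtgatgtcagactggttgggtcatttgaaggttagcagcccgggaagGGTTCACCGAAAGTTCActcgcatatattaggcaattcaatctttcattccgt
The match describes these letters and is not evidence of binding in these cells, and the search covers no enhancer outside the window.

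Beyond the retinoid genes, several of the largest rises were in genes at or near background in untreated cells. Of the 139 genes that rose, 17 were well above background on neither control array. Such genes entered the test only through treated arrays, and their p-values use control signals below background. Slco2b1, a carrier of organic anions such as steroid conjugates, had signals of 6.30 and 1.79 on the control arrays and 501 and 427 on the ATRA arrays and was at least 57.0-fold higher (adjusted p = 0.0178). Mmp9, a secreted gelatinase that cuts basement-membrane collagen, had 2.06 and 2.17 on the control arrays and 112 and 252 on the ATRA arrays and was at least 20.7-fold higher (adjusted p = 0.00571). In both genes the ATRA arrays stood well apart from the control arrays at each time. Col14a1, a collagen that sits on the surface of fibrils, was at least 25.8-fold higher (adjusted p = 0.0045), while a second probe that was above background on 0 of the 4 arrays gave −0.56. Tspan18, a tetraspanin, and Fam20a, a pseudokinase partner of the secretory kinase Fam20c, were at least 11.3-fold and 12.1-fold higher (adjusted p = 0.00936 and 0.00414). Bmp2, a secreted bone morphogenetic protein, was well above background on neither control array and rose to 53.9 and 122 on the ATRA arrays (adjusted p = 0.0168).

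**Figure D1:**
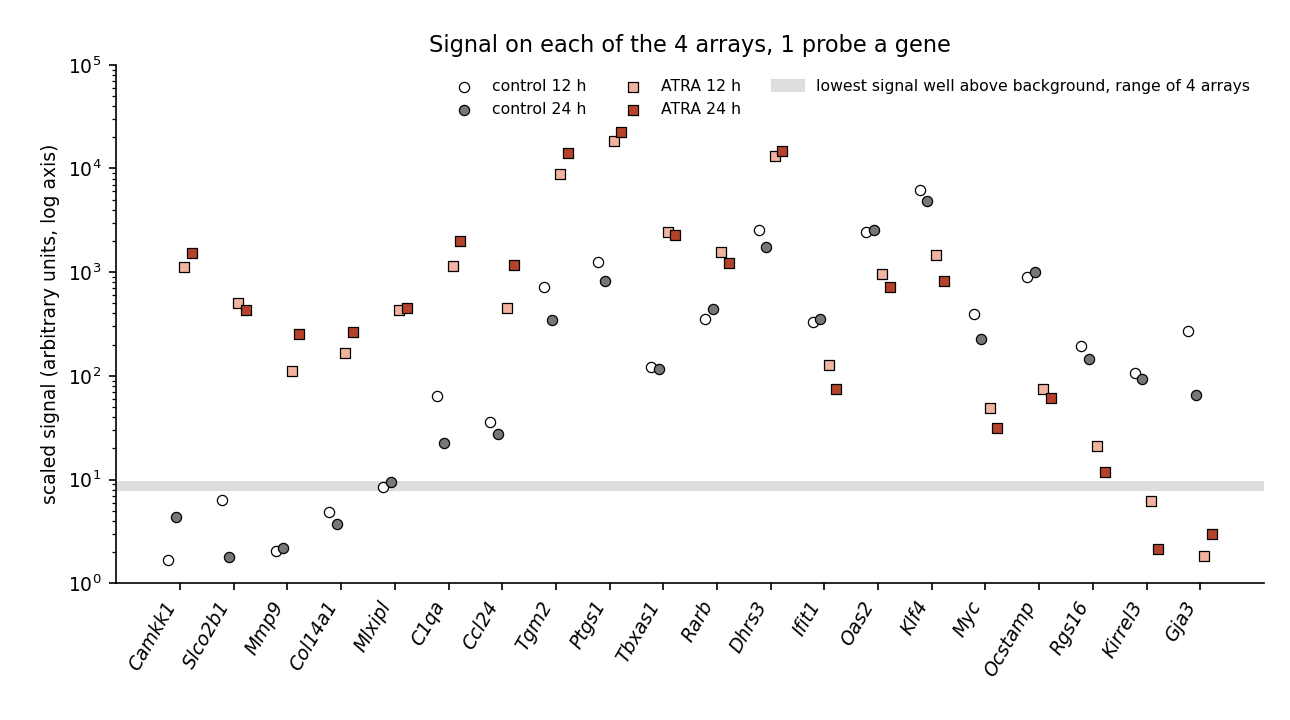
Scaled signal of 20 genes on a log axis, 1 point for each of the 4 arrays (circles control, squares ATRA; pale 12 h, dark 24 h), with the range of the arrays' lowest signals well above background in grey. Camkk1 goes from below the grey band in control cells to 1128 and 1543 in ATRA cells, while Kirrel3 and Gja3 fall below it with ATRA.

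The rise of other genes began from a measurable level. Mlxipl was close to the lowest signals well above background on the control arrays (8.33 and 7.91). Mlxipl encodes the carbohydrate response factor ChREBP, a partner in the MYC and MLX network, and had signals of 8.46 and 9.41 on the control arrays and 430.3 and 451 on the ATRA arrays (5.63 ± 0.35, adjusted p = 0.0088); its second probe, above background on 2 of the 4 arrays, gave 2.50. Csn3, annotated as kappa casein, a milk protein, had 13.7 and 16.6 on the control arrays and 544 and 878 on the ATRA arrays (5.52 ± 0.56, adjusted p = 0.0262), with 2.09 on a second probe. Ndst1, an enzyme that sulfates heparan chains, rose by 3.76 ± 0.40 (adjusted p = 0.0271), but a probe of it that was above background on all 4 arrays gave 0.53, so its probes disagree in size. Ltbp3, which holds latent TGF-beta in the matrix, rose by 3.44 ± 0.13 (adjusted p = 0.00414), whereas its other probe above background on all 4 arrays gave −0.55. Ltbp3 was 1 of 3 called genes with such a probe of opposite sign, the others being Dnajc28 and 1300002E11Rik. In all, 75 called genes had another probe above background on all 4 arrays. Of these 96 probes 3 had the opposite sign, and 8 had the same sign with less than 50% of the log2 difference, among them those of Ndst1, Bmf, Cd300lf and Gsdme.

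Secreted mediators of immunity were among the genes that rose. In a list of complement genes 3 of 18 tested rose (16.7%, against 0.900% of all genes) and 0 fell (median 0.43). The chains of C1q, the recognition subunit of the classical pathway, led it. C1qa had signals of 63.7 and 22.6 on the control arrays and 1144 and 2013 on the ATRA arrays (5.32 ± 0.72, adjusted p = 0.0406; 4.17 at 12 h and 6.48 at 24 h), and C1qb had 105 and 73.6 on the control arrays and 765 and 1786 on the ATRA arrays (3.73 ± 0.48, adjusted p = 0.0362; 2.87 at 12 h and 4.60 at 24 h). C1qc had 209 and 65.2 on the control arrays and 2448 and 5688 on the ATRA arrays and differed by 5.00 without passing the test (adjusted p = 0.0625), with 3.55 at 12 h and 6.45 at 24 h. Disagreement between times enters the error of this fit. The ATRA arrays lay above the control arrays for all 3 chains, as for 20.0% of all genes tested, and each was the higher at 24 h. The receptor for the fragment C5a, C5ar1, had 187 and 129.8 on the control arrays and 617 and 563 on the ATRA arrays (1.92 ± 0.14, adjusted p = 0.0125). Factor B of the alternative pathway, Cfb, was −1.66 ± 0.35 (adjusted p = 0.099) and C3 0.50 ± 0.44 (adjusted p = 0.684).

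Chemokines and the receptors of chemoattractants also gave rises alone. Of 14 chemokines tested 4 rose (28.6%, against 0.900% of all genes) and 0 fell (median 0.98). Ccl24, which attracts eosinophils, had signals of 35.9 and 27.3 on the control arrays and 456 and 1169.8 on the ATRA arrays (4.54 ± 0.42, adjusted p = 0.0211). Ccl6 had 148 and 202 on the control arrays and 1289 and 1542 on the ATRA arrays (3.03 ± 0.20, adjusted p = 0.00947). Cxcl14 was already bright and had 11313 and 7286 on the control arrays and 52855 and 54149 on the ATRA arrays (2.56 ± 0.18, adjusted p = 0.0111), and Ccl12, a ligand of Ccr2, had 9.33 and 6.43 on the control arrays and 45.4 and 49.9 on the ATRA arrays (2.62 ± 0.25, adjusted p = 0.0233). The 24 h control signal of Ccl12 lay below the lowest signal well above background on that array (7.91). For all 4 chemokines both ATRA arrays lay above both control arrays, as they did for 20.0% of all genes tested. The monocyte attractants Ccl2 and Ccl7 were 1.88 and 1.61 higher without passing (adjusted p = 0.0774 and 0.158), and Cxcl11, a chemokine that interferon induces, was −1.89 (adjusted p = 0.136). Of 11 receptors tested 3 rose (27.3%, against 0.900% of all genes) and 0 fell (median 0.36). They were C5ar1, the atypical chemokine receptor Ccrl2 (2.61 ± 0.29, adjusted p = 0.0289 in limma) and the formyl peptide receptor Fpr1. Fpr1 had signals of 3.17 and 2.42 on the control arrays and 25.1 and 48.0 on the ATRA arrays and was at least 4.28-fold higher (adjusted p = 0.0168). Its relative Fpr2 was at least 4.64-fold above the control limit and did not pass (adjusted p = 0.0733).

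Of the enzymes of prostanoid synthesis, a pair that act in sequence rose. Of 15 genes tested 2 rose (13.3%, against 0.900% of all genes) and 0 fell (median 0.05). Ptgs1, the constitutive cyclooxygenase COX-1, had signals of 1249 and 814 on the control arrays and 18481 and 22349 on the ATRA arrays (4.33 ± 0.29, adjusted p = 0.00947). Tbxas1, the thromboxane synthase that acts after it, had 121 and 116 on the control arrays and 2452 and 2270.0 on the ATRA arrays (4.32 ± 0.17, adjusted p = 0.00414), nearly the same rise at both times (4.34 at 12 h and 4.30 at 24 h) and one of the 5 genes that rose with the smallest adjusted p, which also include Camkk1, Fam20a, Ltbp3 and Col14a1. The inducible cyclooxygenase Ptgs2 had 430.2 and 500.4 on the control arrays and 216 and 263 on the ATRA arrays, a difference of −0.96 that did not pass (adjusted p = 0.186), and the leukotriene enzyme Alox5 was −0.62 (adjusted p = 0.262).

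Genes of growth factor signalling, transport and lipid handling gave few calls. Over all genes tested 0.900% were called higher and 0.959% lower. In the TGF-beta and BMP list 2 of 22 rose and 1 fell (median 0.03): Bmp2, the signal transducer Smad3, with 311 and 240.4 on the control arrays and 947 and 1107 on the ATRA arrays (1.90 ± 0.23, adjusted p = 0.0315), and Id2, a BMP target that blocks E-protein factors, which fell by 0.68 (adjusted p = 0.0487). In the LXR and cholesterol efflux list 1 of 17 rose and 1 fell (median −0.02). Abca1, which exports cholesterol to apolipoproteins, had signals of 50.2 and 80.6 on the control arrays and 164 and 399 on the ATRA arrays (2.01 ± 0.21, adjusted p = 0.0271), and Mylip, a ligase that degrades the LDL receptor and like Abca1 a textbook LXR target, had 760.2 and 909.9 on the control arrays and 332 and 297 on the ATRA arrays (−1.40 ± 0.16, adjusted p = 0.0303). The 2 LXR targets thus moved in opposite directions at both times, and Abcg1, another LXR target, was 0.46 (adjusted p = 0.195). Apoc2 was 3.97 higher without passing (adjusted p = 0.058). Of 23 solute carriers 2 rose, Slco2b1 and the hexose transporter Slc2a6 (1.13 ± 0.13, adjusted p = 0.0288), and 18 of the 23 were higher in sign (median 0.29). Single genes also rose among growth factors (Vegfa, 0.97 ± 0.11), purine enzymes (adenosine deaminase Ada, 1.13 ± 0.13), glutathione enzymes (the reductase Gsr, 1.11 ± 0.15) and Toll-like receptors (Tlr1, 1.15 ± 0.14), with adjusted p of 0.0288, 0.031, 0.0396 and 0.0319.

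Genes that mark alternatively activated macrophages were divided. Of 19 tested 5 rose and 2 fell (36.8% called, against 1.86% of all genes), with a median of 0.54. Besides Ccl24 and Tgm2, the beta-glucan receptor Clec7a had 4893 and 4715 on the control arrays and 20634 and 19001 on the ATRA arrays (2.04 ± 0.14, adjusted p = 0.00947), the IL-4 and IL-13 receptor chain Il4ra had 101 and 62.6 on the control arrays and 206 and 212 on the ATRA arrays (1.39 ± 0.20, adjusted p = 0.0431), and the transcription factor Batf3 had 16.4 and 21.8 on the control arrays and 36.8 and 38.1 on the ATRA arrays (0.99 ± 0.15, adjusted p = 0.0487). The 2 that fell were the transcription factor Klf4, with 6212 and 4900.0 on the control arrays and 1459.5 and 817 on the ATRA arrays (−2.34 ± 0.26, adjusted p = 0.0286), and the anti-inflammatory cytokine Il10, with 26.0 and 32.0 on the control arrays and 9.85 and 9.96 on the ATRA arrays (−1.54 ± 0.22, adjusted p = 0.0447), which was well above background on 1 of 2 ATRA arrays. Arg1, the arginase of these cells, was at least 2.45-fold above the control limit (adjusted p = 0.0558), and the scavenger receptor Stab1 was 3.25 higher (adjusted p = 0.0631), both short of the threshold. Of 8 tested dendritic cell markers Batf3 and the maturation marker Cd83 (1.57 ± 0.11, adjusted p = 0.0108) rose and 0 fell (25% called, against 1.86% of all genes). The summed signal of that list was 3747 and 4374 on control arrays and 7743 and 8719 on ATRA arrays, of which Cd83 alone gave 1788 and 1868 and 5118 and 5751. The defining dendritic cell genes Clec9a, Cd209a and Ccr7 were well above background on 0 of the 8 arrays, and the integrin Itgax was −1.36 (adjusted p = 0.117).

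**Figure D2:**
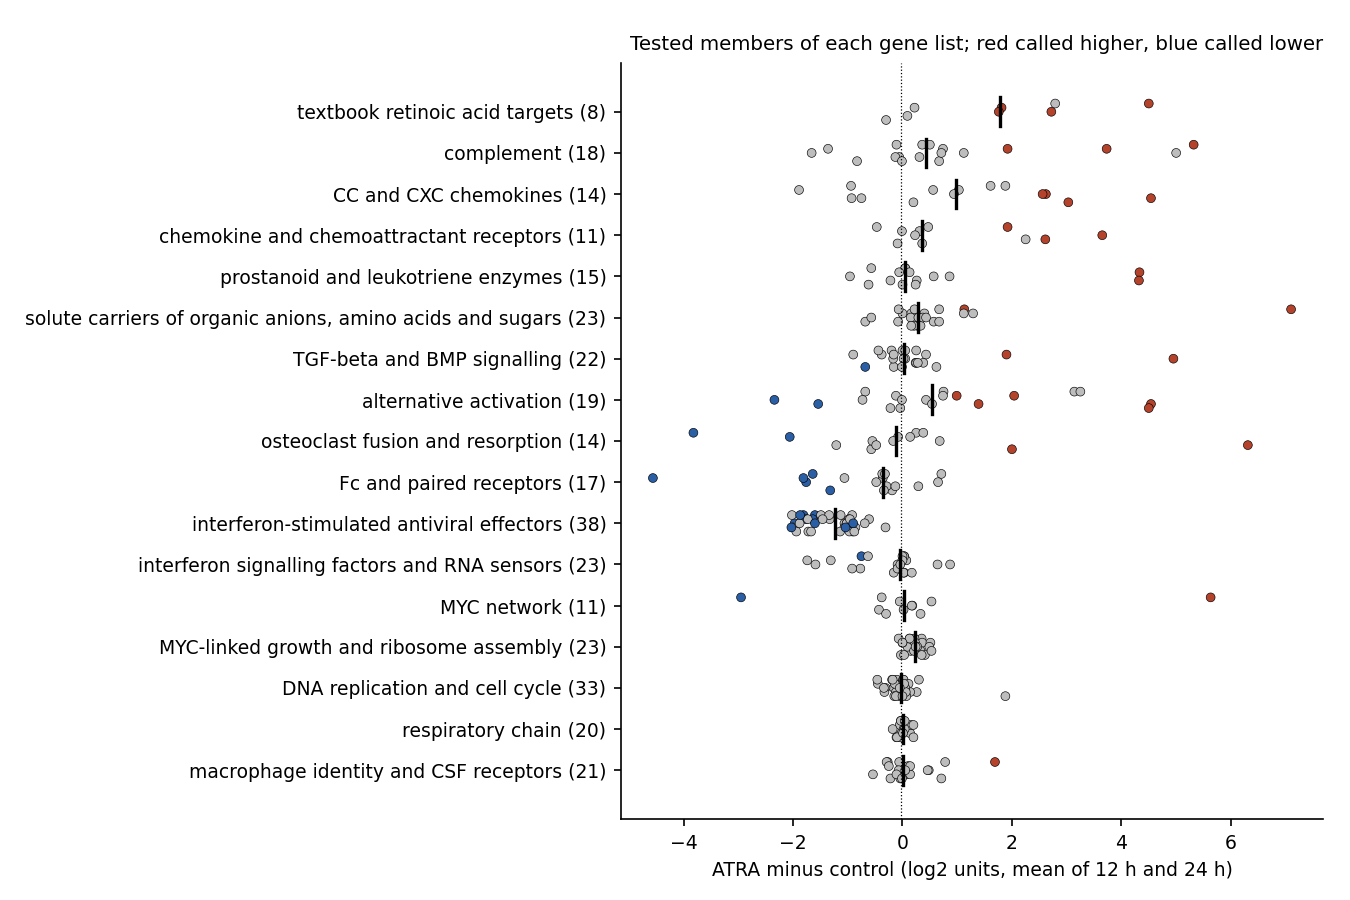
Difference of ATRA minus control in log2 units (mean of both times) for each tested member of 17 gene lists, with the number tested in brackets. Each point is a gene (red called higher, blue called lower, grey not called), black bars are list medians, and the dotted line is the median of all genes; the antiviral list sits to the left as a block while most lists centre on the line with single outlying genes.

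Of the lists, that of antiviral genes which interferon induces gave the most falls by count. It was also the list with the most genes tested, and by share more fell among Fc and paired receptors (29.4% of 17). Type I interferon signals through a complex that holds STAT2 and IRF9 to a response element, and its targets encode proteins that sense or block viruses. Of 38 antiviral effectors tested 0 rose and 10 fell (26.3%, against 0.959% of all genes lower), all 38 were lower in sign, and the median was −1.24. Oas2, which makes the second messenger that activates RNase L, had signals of 2463 and 2554 on the control arrays and 949.9 and 717 on the ATRA arrays (−1.60 ± 0.17, adjusted p = 0.0271). Ifit3, which binds viral RNA with Ifit1, had 306 and 308 on the control arrays and 92.0 and 66.5 on the ATRA arrays (−1.97 ± 0.23, adjusted p = 0.0306), and Ifit1 had 329 and 355 on the control arrays and 128 and 74.1 on the ATRA arrays (−1.81 ± 0.23, adjusted p = 0.0362). In all 3 both ATRA arrays lay below both control arrays, as for 25.0% of all genes tested, and the 24 h ATRA array was the lower. The other 7 genes that fell were Oasl2 (−2.03), Samd9l (−1.87), the GTPase Mx2 (−1.76), Oas3 (−1.64), Gbp3 (−1.60), Parp9 (−1.04) and the RNA-dependent kinase Eif2ak2 (−0.90), with adjusted p between 0.0302 and 0.0479. Isg15, a ubiquitin-like protein, had 1259 and 2379.9 on the control arrays and 587 and 467 on the ATRA arrays, a difference of −1.72 that did not pass (adjusted p = 0.165), with −1.10 at 12 h and −2.35 at 24 h.

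The antiviral differences were larger at 24 h for all 38 genes, as for 54.7% of all genes tested. The list's median was −0.96 at 12 h and −1.52 at 24 h, and 37 of the 38 were lower at both times, Bst2 being the exception (0.14 at 12 h and −0.77 at 24 h). From 12 h to 24 h the median level of the list went up by 0.22 in control cells and changed by −0.36 in ATRA cells. The summed signal of the 38 probes was 74573 and 96957 on control arrays and 43134 and 32952 on ATRA arrays. The genes share their inducer and are not independent of each other. The 10 calls were 0 without either ATRA array, without either array of both agents, without the 24 h control array or with no filter on dim probes, 5 without either IL-13 array, 8 without the 12 h control array, and 22 to 24 with all 8 arrays above background, normexp, or trend and robust settings. The median was −1.66 without the 12 h and −0.88 without the 24 h control array, where 37 of the 38 were lower in sign.

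**Figure D3:**
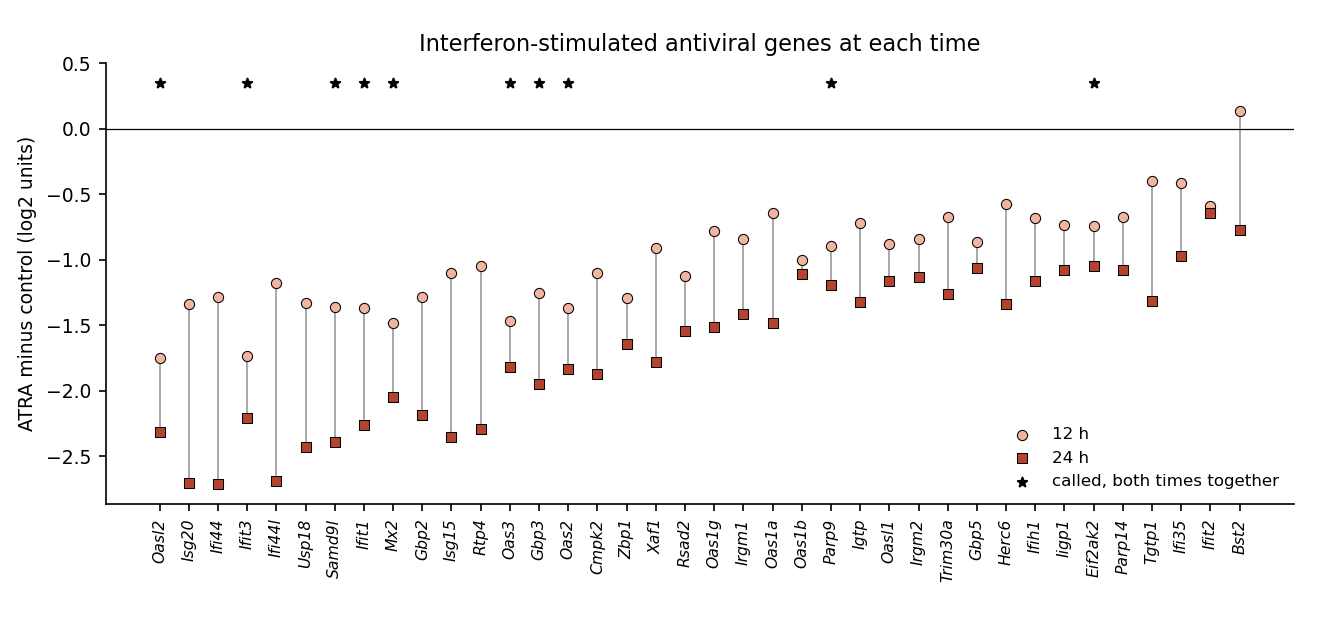
Difference of ATRA minus control in log2 units for the 38 tested antiviral genes, ordered by their mean, with 12 h as pale circles, 24 h as dark squares and stars over the 10 called genes. Every square lies below its circle, and the median falls from −0.96 at 12 h to −1.52 at 24 h.

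The factors upstream of these targets gave fewer calls. In the list of interferon signalling factors and RNA sensors 1 of 23 fell, Stat2, and 0 rose (4.35% called, against 0.959% of all genes lower). The median was −0.04. Stat2 had signals of 944 and 855 on the control arrays and 558 and 509 on the ATRA arrays (−0.75 ± 0.10, adjusted p = 0.0429; −0.76 at 12 h and −0.75 at 24 h). Irf7, itself induced by interferon, had 786 and 1276 on the control arrays and 383 and 234 on the ATRA arrays and did not pass (−1.74, adjusted p = 0.127), and Irf9 was −0.77 (adjusted p = 0.0952). The interferon gene Ifnb1 was well above background on both control arrays and on 0 ATRA arrays, with 16.8 and 12.8 on the control arrays and 3.20 and 8.06 on the ATRA arrays, and did not pass (adjusted p = 0.327). In the list of MHC class I and immunoproteasome genes, many of which interferon also induces, 0 of 15 were called (median −0.04).

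The core letters of the interferon response element were looked for in the promoters. GAAA followed after any 2 bases by a second GAAA, searched on both strands, was found in 15 of 101 genes that fell (14.85%), in 4 of 99 that rose (4.04%), in 3.76% of 10173 tested genes and in 3.44% of all 32851 promoters. The 15 include Ifit1, Ifit3 and Gbp3 with more than 1 match each, and Gbp2b, Oas3, Stat2, Eif2ak2, Slfn5, Cd300c and Pilrb1, and the 4 are Cxcl14, Dhrs3, Vegfa and Plk2. Stretches of 6 promoters are shown for where the matches lie. Capitals mark the matches, which appear as a pair of TTTC where they are on the other strand, and in Gbp3 a pair of matches overlap.
Ifit1: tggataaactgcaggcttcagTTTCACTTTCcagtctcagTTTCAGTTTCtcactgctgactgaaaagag
Ifit3: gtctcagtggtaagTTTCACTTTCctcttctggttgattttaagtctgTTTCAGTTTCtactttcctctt
Gbp3: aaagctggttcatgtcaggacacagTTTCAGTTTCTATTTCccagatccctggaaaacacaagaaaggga
Gbp2b: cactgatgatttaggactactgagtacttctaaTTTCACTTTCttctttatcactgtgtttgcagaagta
Oas3: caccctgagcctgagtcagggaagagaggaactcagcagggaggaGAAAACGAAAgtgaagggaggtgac
Stat2: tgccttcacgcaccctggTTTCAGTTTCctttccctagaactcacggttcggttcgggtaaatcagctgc
In GRCm38.p6 these are chr19:34640764-34640833, chr19:34583359-34583428, chr3:142559974-142560043, chr3:142594677-142594746 and chr10:128270258-128270327 on the plus strand and chr5:120777710-120777779 on the minus strand. The AP-1 site TGANTCA was found in 14 of the 99 genes that rose (14.14%), 10 of the 101 that fell (9.9%) and 6.38% of tested genes. The E-box CACGTG was found in 12.12% and 6.93% against 11.44%, and the STAT site TTCNNNGAA in 8.08% and 8.91% against 8.26%. These are shares of promoters that hold the letters, and no test was run on them.

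Myc, a transcription factor that drives growth, fell at both times. It had signals of 393 and 229 on the control arrays and 48.6 and 31.2 on the ATRA arrays (−2.95 ± 0.19, adjusted p = 0.0088; −3.02 at 12 h and −2.88 at 24 h). Both ATRA arrays were far below both control arrays, and 25.0% of all genes tested had both below. For Myc 2 other probes gave −2.77 and −1.96. The Myc paralogue Mycn had 6835 and 5348 on the control arrays and 8814 and 8659 on the ATRA arrays (0.53, adjusted p = 0.377 in limma). The partner of Myc, Max, was 0.18 (adjusted p = 0.561 in limma). Mlxipl rose and Myc fell in the MYC network list of 11 (18.2% called, against 1.86% of all genes), with a median of 0.02. Of 23 genes of growth and ribosome assembly that are linked to MYC 0 were called, and 20 of the 23 were higher in sign (median 0.22), for example Nolc1 (0.51, adjusted p = 0.191). Of 33 genes of DNA replication and the cell cycle 0 were called (median −0.03); the proliferation marker Mki67 had 28924 and 25769 on the control arrays and 25119 and 22952 on the ATRA arrays, and the replication clamp Pcna 39605 and 46826 on the control arrays and 38934 and 40398 on the ATRA arrays. Among immediate early and stress genes Fos (−1.38 ± 0.18, adjusted p = 0.036), the phosphatase Dusp1 (−1.28 ± 0.10, adjusted p = 0.0161) and the chaperone Hspa1a (at least 1.48-fold lower, adjusted p = 0.0429) fell, each 1 of its list, while Dusp6, a phosphatase specific for ERK, rose (1.40 ± 0.17, adjusted p = 0.0345), as did Klf3 (1.34 ± 0.18, adjusted p = 0.0401). Bmf, a pro-apoptotic member of the BCL2 family, fell by 2.34 (adjusted p = 0.0315), with −0.59 on another probe above background on all 4 arrays. Calls made up 5.26% of 19 immediate early genes, 14.3% of 14 MAP kinase phosphatase and sprouty genes and 6.25% of 16 heat shock genes. They made up 20% of 10 Kruppel-like factors and 8.33% of 12 BCL2 family genes, against 1.86% of all genes.

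Several receptors on the surface of myeloid cells fell. Of 17 tested Fc and paired receptors 5 fell (29.4%, against 0.959% of all genes) and 0 rose (median −0.36). Pirb, an inhibitory receptor that binds MHC class I, had signals of 1139 and 1266 on the control arrays and 355 and 354 on the ATRA arrays (−1.76 ± 0.18, adjusted p = 0.0262). Cd300a and Cd300lf, lipid-binding inhibitory receptors, had 2546 and 2659 on the control arrays and 961 and 729 on the ATRA arrays (−1.64 ± 0.19, adjusted p = 0.031) and 482 and 582 on the control arrays and 193 and 119 on the ATRA arrays (−1.81 ± 0.25, adjusted p = 0.0401), although another probe of Cd300lf gave −0.39. The inhibitory lectin Clec4a2 had 7812 and 7381 on the control arrays and 3448 and 2671 on the ATRA arrays (−1.32 ± 0.17, adjusted p = 0.0378). For these 4 genes both ATRA arrays lay below both control arrays, as they did for 25.0% of all genes tested. Pilrb1 had 80.6 and 50.8 on the control arrays and 3.84 and 1.92 on the ATRA arrays and was at least 7.35-fold lower (adjusted p = 0.0305). Cd300c and Lilra6, which stand outside that list, were also among the 15 largest falls: Cd300c was at least 1.52-fold lower and Lilra6 fell by 2.45 (adjusted p = 0.0271 and 0.031). The high-affinity IgG receptor Fcgr1 was 0.71 without passing (adjusted p = 0.108). Of 15 scavenger and apoptotic-cell receptors tested 2 rose and 1 fell (20% called, against 1.86% of all genes). The oxidized LDL receptor Olr1 (2.28 ± 0.25, adjusted p = 0.0287) and Clec7a rose and Havcr2, also called TIM-3, fell (−1.39 ± 0.20, adjusted p = 0.0446).

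The osteoclast genes were split as well, with 2 of 14 higher and 2 lower (28.6% called, against 1.86% of all genes). Their median was −0.12. Ocstamp and Dcstamp, membrane proteins needed for the fusion of osteoclast precursors, had signals of 903 and 1006 on the control arrays and 74.7 and 61.1 on the ATRA arrays (−3.82 ± 0.33, adjusted p = 0.0178) and of 721 and 1109.9 on the control arrays and 222 and 206 on the ATRA arrays (−2.06 ± 0.30, adjusted p = 0.0461). Car2, the carbonic anhydrase that supplies protons for resorption, had 13817 and 14991 on the control arrays and 55044 and 60310.4 on the ATRA arrays (2.0 ± 0.13, adjusted p = 0.0088) and rose with Mmp9. The collagenase cathepsin K, Ctsk, was −1.21 (adjusted p = 0.277).

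The 15 largest falls with a gene symbol also took in genes of no list. Of the 148 genes that fell, 16 were well above background on neither ATRA array. Such genes entered the test through other arrays, and their p-values use ATRA signals below background. Gja3, a connexin, had signals of 272 and 65.1 on the control arrays and 1.82 and 2.99 on the ATRA arrays and was at least 15.3-fold lower (adjusted p = 0.0274), while its 2 other probes were above background on 0 of the 4 arrays. Kirrel3, an adhesion molecule that was well above background on both control arrays, had 6.20 and 2.14 on the ATRA arrays and was at least 11.5-fold lower (adjusted p = 0.0161). Rgs16, which shuts off G-protein signalling, had 192 and 146 on the control arrays and 20.9 and 11.7 on the ATRA arrays (−3.42 ± 0.40, adjusted p = 0.031), and the repressor Zbtb32 had 5428 and 5676 on the control arrays and 996 and 292 on the ATRA arrays (−3.36 ± 0.50, adjusted p = 0.0469). Tmem26, Ceacam19, Lrrc17, Oit3, Olfml3 and Ptchd1 fell as well, with differences of −3.17, −3.02, −2.79, −2.71, −2.57 and −2.51 and adjusted p between 0.0045 and 0.0488. A second probe of Ceacam19, above background on 2 of the 4 arrays, gave 0.29, the opposite sign. The 5 falls with the smallest adjusted p were those of Oit3, Gsdme, Myc, Zc3h12d (−1.81 ± 0.14, adjusted p = 0.0125) and a transcript named AK044903 (−1.97 ± 0.13, adjusted p = 0.0088). Next came Vim, chosen after its values were seen. Vim, the intermediate filament vimentin, had 54509 and 49843 on the control arrays and 19673 and 13838 on the ATRA arrays (−1.66 ± 0.13, adjusted p = 0.0141), and the pore-forming gasdermin Gsdme had 1764 and 1764 on the control arrays and 453 and 376 on the ATRA arrays (−2.10 ± 0.12, adjusted p = 0.00729), with −0.21 on another probe above background on all 4 arrays.

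Several lists gave 0 calls. Among them were the respiratory chain (0 of 20, median 0.01), sterol and fatty acid synthesis (0 of 20, 0.08), integrins (0 of 14, −0.13) and lysosomal hydrolases with the proton pump (0 of 25, 0.13). Classical activation cytokines and enzymes (0 of 9, −0.40) and MHC class II presentation (0 of 9, −0.43) had medians farther below that of all genes. With bounds in place of the fitted values of 2 members in each list, both medians were −0.30. Both were −0.08 with normexp, and they were 0.33 and −0.43 with all 8 arrays above background. The classical activation median was −0.63 at 12 h and −0.07 at 24 h. The unfolded protein and integrated stress response list also had 0 calls of 24, with 22 higher in sign and a median of 0.36; the chaperone Hspa5 was 0.38 (adjusted p = 0.401). A difference of 1 log2 unit had limited power in a simulation, where 46.2% of 80 such differences were called. Of 80 differences of 2 units 92.5% were called, and all 40 of 4 units, with 7 false calls among 15440 genes. The simulated noise was independent between genes and arrays, at the moderated spread that limma fitted. It held no disturbance shared by the genes of 1 array, so these shares may not hold on the real arrays.

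By size, 15 of the genes that rose and 3 of those that fell had a fitted difference of 4 log2 units or more, some of them against signals below background, while 60 and 93 lay between 1 and 2 units. Counted without a test, 230 genes were at least 2-fold higher at 12 h (1.49%) and 380 at 24 h (2.46%), 161 of them at both times (1.04%). For at least 2-fold lower the counts were 461 at 12 h (2.99%), 543 at 24 h (3.52%) and 240 at both (1.55%). At least 4-fold higher were 80 genes at 12 h (0.518%), 114 at 24 h (0.738%) and 59 at both (0.382%), and at least 4-fold lower 69 (0.447%), 120 (0.777%) and 30 (0.194%). Rises outnumbered falls at 4-fold or more at 12 h and at both times, and falls outnumbered rises at 24 h and at 2-fold or more at each time. Of the 287 called genes 205 (71.4%) had the larger difference at 24 h, against 54.7% of all genes, and their median size was 1.32 at 12 h and 1.53 at 24 h. The call itself favours genes that agree between times, since disagreement enters its error.

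**Figure D4:**
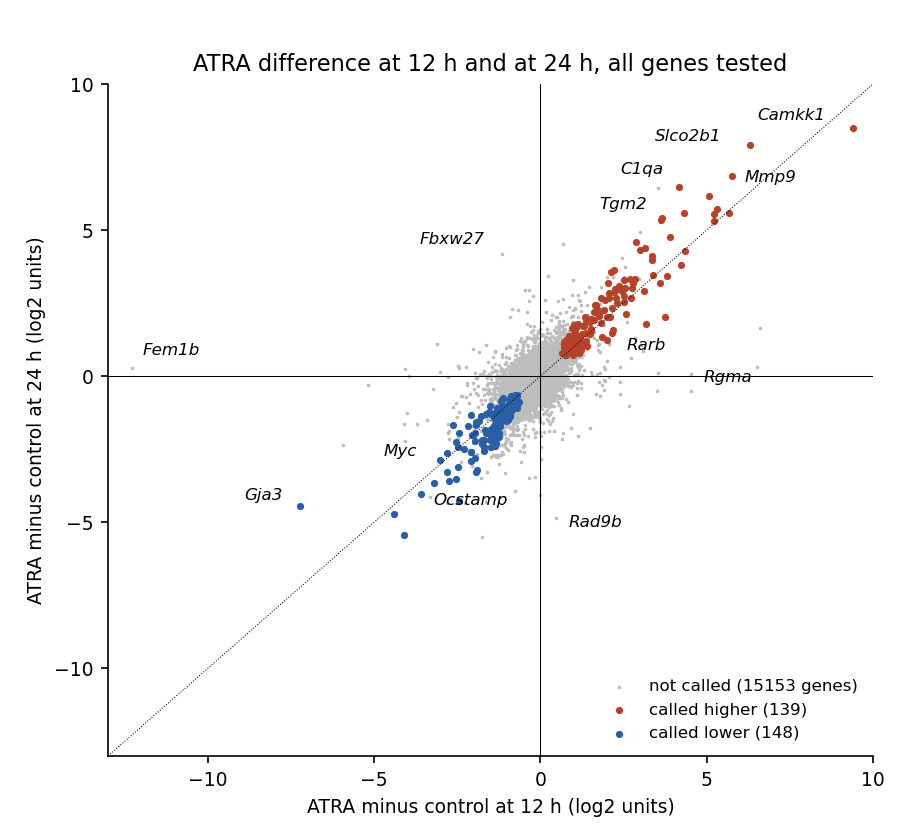
Difference of ATRA minus control at 12 h (horizontal) and 24 h (vertical) in log2 units for all 15440 genes tested, with called genes in red (139 higher) and blue (148 lower). Called genes follow the dotted line of equality, while Fem1b, Rgma and Rad9b lie near 0 at 1 time, Fbxw27 has opposite signs at the 2 times, and none of these 4 is called.

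Whether the ATRA effect changed with time was tested over cells with and without IL-13, and 0 genes passed (smallest adjusted p 0.503), although 1478 had an unadjusted p under 0.05 in that limma fit with 1 residual degree of freedom. Genes that differed at least 4-fold at 1 time and under 1.5-fold, or the other way, at the other numbered 10 higher and 14 lower at 12 h and 16 higher and 17 lower at 24 h. Each such difference rests on 1 array against 1, and its log2 value is not a size where the dimmer array was below background. Fem1b, a ubiquitin ligase adaptor, had 8275 and 7509 on the control arrays and 1.67 and 9160.4 on the ATRA arrays, so that a single array at 12 h, below background for this gene, set its difference. Rgma, a repulsive guidance molecule, had 9.05 and 8.34 on the control arrays and 209 and 8.79 on the ATRA arrays. The others with the largest differences at 12 h and a symbol were Olfr259, Lrguk, Spaar, Olfr1509, Carf and Glp2r among the higher and Olfr1030, Pcdhb18, Tex26, Adgrg3, Zfpl1, Best2 and Fbxl21 among the lower. At 24 h the largest were Fbxw27 (−1.14 at 12 h and 4.18 at 24 h), Fev (0.23 at 12 h and 3.44 at 24 h), Il31ra, A430033K04Rik, Ina, Bcl6b, Olfr1284 and Caln1 among the higher and Rad9b (0.48 at 12 h and −4.86 at 24 h), Cldn34b2, Hspb6, Dyrk4, Gsta1, Evpl, Mical1 and Pthlh among the lower. On the IL-13 arrays of the same time 1 of the 10 and 2 of the 14 recurred in direction at 2-fold or more, and 3 of the 16 and 3 of the 17, among them Caln1 (2.10 at 24 h), Gsta1 (−2.67 at 24 h) and Tex26 (−1.75 at 12 h). Genes at least 2-fold in opposite directions numbered 6 (0.0389%): Adgrg3, Sema5a, Spaar, Fbxw27, 9530057J20Rik and a probe named NAP071318-1.

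The IL-13 arrays gave the comparison on other arrays, ATRA with IL-13 against IL-13. Because they also entered the probe filter and the error that decided the calls, this is not an independent repeat. Of the 287 called genes 274 (95.5%) had the same sign there at both times, against 51.3% of all genes tested, and 170 (59.2%) kept their direction at 2-fold or more at both, against 2.55%. Across the called genes the 2 differences had a Pearson correlation of 0.919 over 287 genes, and of 0.639 over all 15440, as a description; all 8 arrays share 1 platform and 1 cell line, and genes are not independent. Camkk1 was 7.77 and 9.13 higher there, Col14a1 5.53 and 5.89, and Rarb 2.23 and 2.12. Myc was −1.57 and −2.08. C1qa was 2.47 and 2.04, and Fpr1 0.57 and 0.86, with adjusted p of 1 and 0.564 for the difference from cells without IL-13 in limma. That comparison called 407 genes in all (2.64%), 178 higher (1.15%) and 229 lower. The antiviral list had a median of −0.85 there with 4 of 38 lower at an adjusted p under 0.05 in limma, against 1.48% of all genes. Not every list median kept its sign. With IL-13 it was −0.15 for chemokines, −0.04 for chemoattractant receptors and −0.43 for alternative activation, against 0.98, 0.36 and 0.54 without. It was 0.26 for complement and 1.88 for the textbook retinoic acid targets, which kept theirs.

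The difference between the ATRA effect with and without IL-13 passed for 0 of the 287 called genes and for 3 genes in all (0.0194%), with 564 at an unadjusted p under 0.05 by limma. Those 3 were above background in 1 treatment each, through which they entered the test, and the count was 0 with probes above background on all 8 arrays and 0 with no filter. Of the 13 called genes that did not keep their sign with IL-13 at both times, Gja3 gave −0.15 and 0.69, Pilrb1 0.61 and −1.47, and Gper1, a membrane estrogen receptor, 0.21 and 0.15 against −2.20 without IL-13. The adjusted p of their interaction was 0.564, 0.681 and 0.564, so a difference in their response was not detectable with these arrays.

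**Figure D5:**
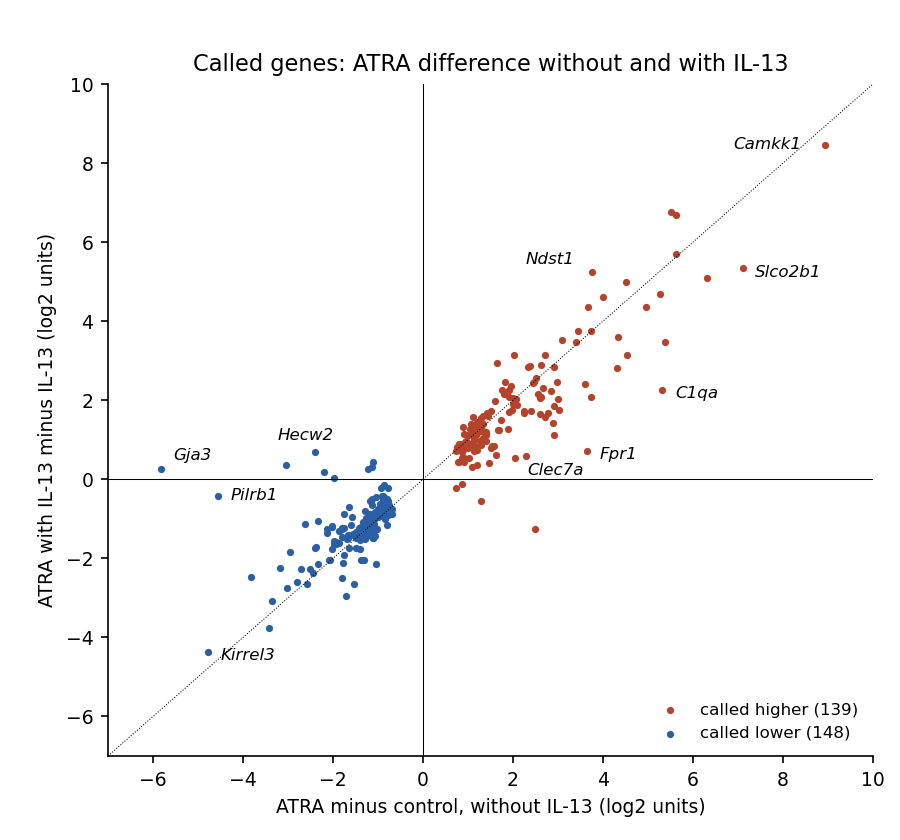
Difference of ATRA minus control without IL-13 (horizontal) and of ATRA with IL-13 minus IL-13 (vertical), both in log2 units and as means of 12 h and 24 h, for the 287 called genes (red higher, blue lower). Points follow the dotted line of equality for genes such as Camkk1 and Kirrel3, while C1qa and Fpr1 lie below it and Gja3 lies near 0 with IL-13.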

How the data were processed

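Total RNA of RAW264.7 cells was labelled with Cy3 and hybridized to one-colour Agilent mouse arrays (design 014868, per the file headers), 4 treatments with 1 array at 12 h and 1 at 24 h. The signal intensity was deposited by the authors as read by Feature Extraction 10.7.1.1, which subtracts background within an array, per the file headers, with no normalization between arrays. Its 0 or 1 flags for well above background, saturation and outlying spots are other values, per the file headers. The authors also deposited a table on a log2 scale whose 8 columns have a common median of 4.57, with its method and centring not stated in the sources used here, and it served as an alternative. Positions in the scanner files follow mm9, per the file headers, and were not used. The promoters are those of RefSeq in GRCm38.p6.

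Control spots were left out, outlying spots set to missing and repeat spots averaged, for 41174 probes. Signals were divided by each array's 75th percentile and taken to log2. A probe was kept (24017 of them) where both arrays of some treatment had it well above background, and the probe with the highest mean stood for its gene (15440 genes, 12710 with a symbol). Names came through RefSeq accessions for 27668 probes, symbols for 5589 and synonyms for 471, and 7446 kept the deposited name. No probe counted as saturated. limma 3.58.1 in R 4.3.3 fitted 4 treatments and time on all 8 arrays, with 3 residual degrees of freedom. Two-sided p-values were adjusted by Benjamini-Hochberg over all genes. The fit was tested on simulated data with 200 changed genes. Where a group was well above background on neither array, the fold is a bound: the mean log2 signal of the bright group minus, for each dim array, the higher of its lowest signal well above background and the gene's own. The number of arrays limits the precision.

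The labels give a time and a treatment and no replicate number. The arrays of a time share a slide, so time was the block of the main fit (replicate 1 stands here for 12 h and 2 for 24 h). Alternatives were quantile scaling, median centring, normexp background correction with an offset of 50, the deposited values, other filters, the mean over probes, the 4 arrays alone, time left out or as a random block, trend with robust settings, and leaving out each array. The members and the 52 gene lists (931 genes) were chosen with earlier results of these data known. Some genes are not reported here. Named genes were the 15 largest rises and falls with a symbol, called members of each list with up to 3 others, the 3 markers, the genes led by 1 time or opposite between times, and the 5 smallest adjusted p in each direction.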

Additional observations from a re-analysis of the deposited data

Results flagged for a closer look

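Groups of 2 arrays are too small to test for an outlying array. For 3 genes limma's interaction term for ATRA with and without IL-13 passed. Each was tested only because it was above background in the 1 treatment where it was high, and 0 genes passed with probes above background on all 8 arrays or with no filter, so the term is given as a description. None of them was called for ATRA alone, where they were well above background on 0 of the 4 arrays. The interaction was 6.60 ± 0.29 for Mpdz (adjusted p = 0.0213), whose signals were 2.09 and 1.65 on the control arrays and 1.76 and 1.92 on the ATRA arrays and 255 and 164 on the arrays with both agents. It was 5.50 ± 0.32 for Pax9 (adjusted p = 0.0342), with 131 and 248 on the arrays with both agents against 1.87 and 1.93 on the control arrays and 1.76 and 2.22 on the ATRA arrays. It was −4.24 ± 0.23 for 1700025L06Rik (adjusted p = 0.0309), with 44.3 and 26.9 on the IL-13 arrays and 2.91 and 1.91 with both agents. These fitted sizes use signals below background and are no bound, and 2 of the 3 genes rest on signals seen with both agents only.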

How the results depend on the processing

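Of the 287 genes called for ATRA alone 0 changed sign under any alternative. This says little, since the call favours genes of the same sign at both times. The count of calls was 433 with probes well above background on all 8 arrays, 630 with trend and robust settings and 0 with no filter on dim probes. It was 274 with no replicate block, of which 222 were among the 287, and between 1 and 171 when 1 array was left out. With the 4 arrays alone 174 of the 287 were called again, with normexp 208, with quantile scaling or the deposited values 254, with the mean over probes 260, with median centring 266, with trend and robust settings 267 and with the filter on control or ATRA arrays 285. The share of calls that were higher was 48.4% and became 54.3% with quantile scaling and 54.2% with the deposited values. The 401 genes that kept 1 direction at 2-fold or more at both times became 239 with all 8 arrays above background, 164 with normexp and 649 with no filter. The 3 genes whose ATRA effect differed by IL-13 became 0 with all 8 arrays above background and 0 with no filter, and between 0 and 8 when 1 array was left out, an alternative chosen after seeing the data. The effect by time, with 0 calls, gave 264 with normexp. Genes that were not called and changed sign when 1 array was left out ranged from −0.86 to 0.23 for Bst2, −0.10 to 1.09 for C3, −0.14 to 0.07 for Cd68, −0.06 to 0.21 for Csf1r, −0.25 to 0.01 for Pcna, −1.74 to 0.96 for Rara and −0.17 to 0.44 for Rxra. The cause of these changes was not tested. Signals near background limit the dim genes, for which the folds are bounds.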

Other observations

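Gene families were counted by gene symbol, over every tested member, and were chosen after the values were seen. Of 6 guanylate-binding proteins, GTPases that interferon induces, 3 fell and all 6 were lower in sign (median −1.51, and −1.36 with IL-13): Gbp2b (−1.79 ± 0.15), Gbp3 and Gbp9 (−1.17 ± 0.15). Of 7 members of the p200 family, nuclear sensors of DNA, 3 fell, namely Ifi204 (−1.18 ± 0.13), with signals of 3554 and 3597 on the control arrays and 1751 and 1420.4 on the ATRA arrays, Ifi207 (−1.14 ± 0.17) and Ifi211 (−0.92 ± 0.13), and 6 were lower in sign (median −1.10). Of 6 schlafens 1 fell, Slfn5 (−2.14 ± 0.26), and all 6 were lower in sign. Of 9 CD300 receptors 4 fell and 1 was higher in sign (median −1.35). Related members of these families can share probe sequence, and cross-hybridization was not tested.

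Other families held both directions or rises alone. Of 17 sulfotransferases of glycosaminoglycan chains Ndst1, Chst1 (2.34 ± 0.17; signals of 1537 and 2023 on the control arrays and 9094 and 8762 on the ATRA arrays) and Hs3st3b1 (1.05 ± 0.15) rose and Chst3 fell by 1.30. Of 22 ABC transporters Abca1, Abca13, the conjugate exporter Abcc3 (1.45 ± 0.21) and Abcg2 (0.77 ± 0.10) rose and 0 fell. Both tested paraoxonases rose (Pon2 1.07 ± 0.11, Pon3 0.86 ± 0.12), as did both tested Eph receptors (Epha2 2.03 ± 0.29, Ephb3 0.90 ± 0.14). Among claudins, junctional adhesion molecules and nectins Jam2 rose (1.46 ± 0.17), while F11r (−2.03 ± 0.25), Nectin1 (−0.79 ± 0.11) and Nectin3 (−1.48 ± 0.23) fell. All genes named here as changed passed an adjusted p under 0.05 in limma over all 15440 genes, where 1.86% did.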
